A study of Mus musculus with 8 samples.

Results

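The 9 genes described here mark alveolar macrophages or their alternative activation: Siglecf, Itgax and Car4 (surface molecules), Il4ra (a cytokine receptor chain), Chil3 (a secreted protein), and Bhlhe40, Bhlhe41, Cebpb and Spi1 (transcription factors). Positions below are on GRCm38.p6, per RefSeq, and exon counts are those of the longest coding transcript in GENCODE. The genes were taken by name from a list, and all 9 were found among the 15521 genes of the table and among the 11621 genes tested. The cells were alveolar macrophages obtained by bronchoalveolar lavage of mice, purified by adherence for 2 h and then kept in medium with recombinant murine GM-CSF at 10 ng/ml. The 4 groups of 2 libraries were cells given 10 µM MSDC and then 5 µg/mL Poly(I:C), cells given DMSO as vehicle and then the same Poly(I:C), cells given 10 µM MSDC alone, and cells given DMSO alone. MSDC or DMSO was given 2 h before stimulation, and stimulation lasted 24 h per the sample labels and overnight per the series description. The labels do not name the compound beyond MSDC, a code prefix borne by several molecules that target the carrier of pyruvate into mitochondria. Poly(I:C) is a synthetic double-stranded RNA used to mimic viral RNA. Genotype, age, sex and any pooling of animals are not stated in the labels, and the strain field of the labels repeats the treatment.

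Alveolar macrophages are the resident phagocytes of the airspaces, and they depend on GM-CSF, which acts through PU.1 and PPARγ to set and keep their identity. In mice they are recognised by high SIGLEC-F, an inhibitory lectin that binds sialic acid, together with high CD11c, the integrin αX chain. Alternative activation is the state that macrophages take on under IL-4 or IL-13, which signal through the IL-4 receptor α chain and STAT6, and Chil3 (Ym1) is one of its usual marker genes in mice.

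Each library held 28762425 to 29493223 estimated counts, and no library had fewer than 2993 counts for any of the 9 genes. The labels leave unsaid whether replicate libraries stem from different animals or wells, so each p below reflects the scatter of these libraries alone, which may be technical. In bulk RNA, fewer cells of a type and less RNA per cell cannot be told apart. All 12 fixed alveolar macrophage markers were tested, and their summed level was 17197 to 17844 TPM (a level scaled to gene length and to library depth) with MSDC and Poly(I:C), 11961 to 12066 TPM with vehicle and Poly(I:C), 16896 to 17065 TPM with MSDC alone and 12503 to 12641 TPM with vehicle alone. Of the 12, 8 rose and 2 fell (Pparg and Plet1) with MSDC at an edgeR adjusted p under 0.05, in both settings. Of all tested genes, 12.5% rose and 13.6% fell with Poly(I:C), and 11.1% and 12.4% without it. Ear1 and Ear2 averaged 2092 and 3308 TPM with MSDC and Poly(I:C), against 158 and 1433 TPM with vehicle and Poly(I:C). Cd68, which did not pass, averaged 4881 TPM against 5042 TPM in the same groups. Eosinophils also carry SIGLEC-F, and the 3 of 5 eosinophil markers found summed to at most 0.12 TPM in any library, with Ccr3 at 0 in all. Lung endothelium also carries Car4, and the 4 of 6 endothelial markers found summed to at most 1.69 TPM, with Ednrb at 0. Dendritic cells also carry CD11c, and their 6 markers summed to at most 8.47 TPM.

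Compared per gene length, Chil3 was the highest of the 9 genes in each of the 4 group means and Il4ra the lowest. The median over the 8 libraries was 5563 TPM for Chil3, which placed it at rank 12 of all genes in the table. Cebpb, Itgax, Spi1 and Car4 followed closely on each other, at medians of 1197, 1014, 952 and 884 TPM. Bhlhe40 had a median of 338 TPM, Siglecf 250.2 TPM, Bhlhe41 125 TPM and Il4ra 54.1 TPM. The range over libraries did not follow the level. In CPM (counts scaled to library depth with TMM factors, used below for comparisons within a gene), the highest library was 2.19 times the lowest for Bhlhe40 and 1.995 times for Chil3, against 1.63 times for Cebpb, 1.501 times for Itgax, 1.38 times for Car4, 1.35 times for Il4ra, 1.28 times for Spi1, 1.26 times for Bhlhe41 and 1.12 times for Siglecf.

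**Figure D1:**
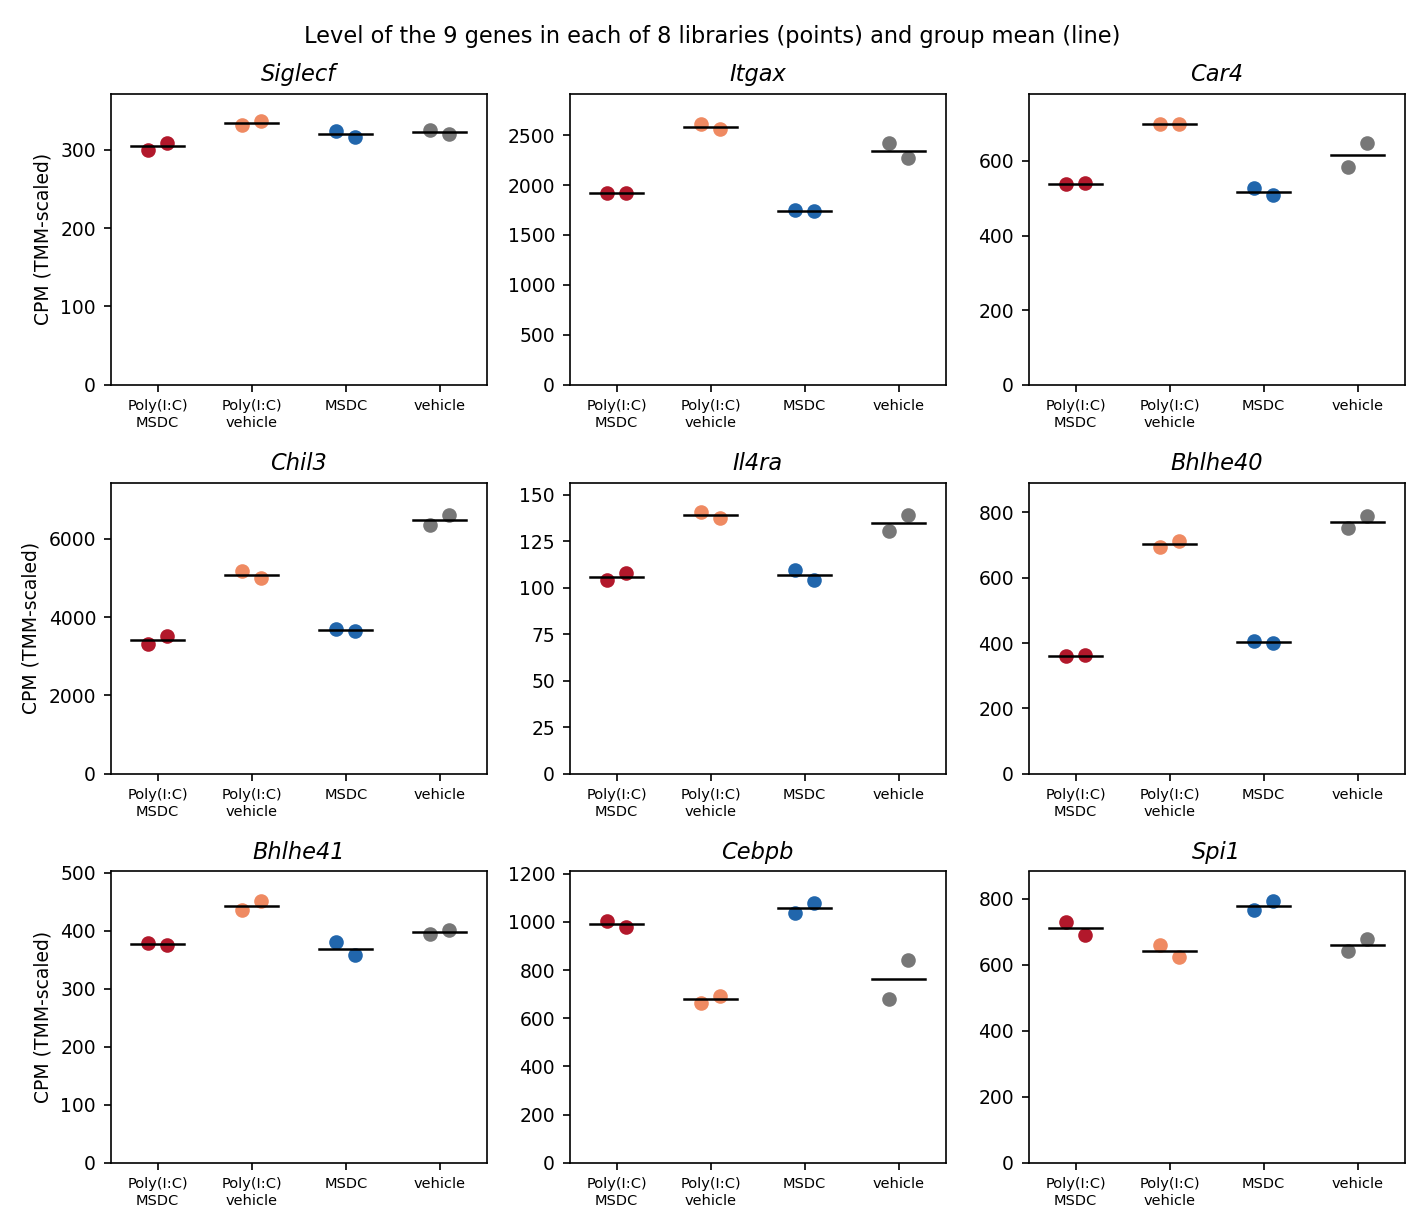
Level of each of the 9 genes in CPM (TMM-scaled, linear axes from 0) in each of the 8 libraries, by group; points are libraries and lines are the means of 2. In the panels of Itgax, Car4, Chil3, Il4ra, Bhlhe40 and Bhlhe41 both MSDC groups lie below both vehicle groups, and in the panels of Cebpb and Spi1 both lie above.

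MSDC changed 7 of the 9 genes in each setting, mostly downward. With Poly(I:C), 6 fell and 1 rose at an adjusted p under 0.05 (edgeR quasi-likelihood test, two-sided, Benjamini-Hochberg adjusted over all 11621 genes), where 26.1% of all tested genes passed, 13.6% as falls and 12.5% as rises. Without Poly(I:C), 5 fell and 2 rose, where 23.5% of all tested genes passed, 12.4% as falls and 11.1% as rises. Abundant genes passed more often: of the 2037 genes that averaged at least 100 CPM, 41.6% passed with Poly(I:C) and 39.4% without. The median log2 fold change of the 9 genes was -0.37 with Poly(I:C) and -0.25 without, against -0.0024 and -0.0015 over all tested genes. The libraries of the groups compared did not overlap for 9 of the 9 genes with Poly(I:C) and for 8 without, all but Siglecf, where 62% and 57% of all tested genes did not overlap.

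**Figure D2:**
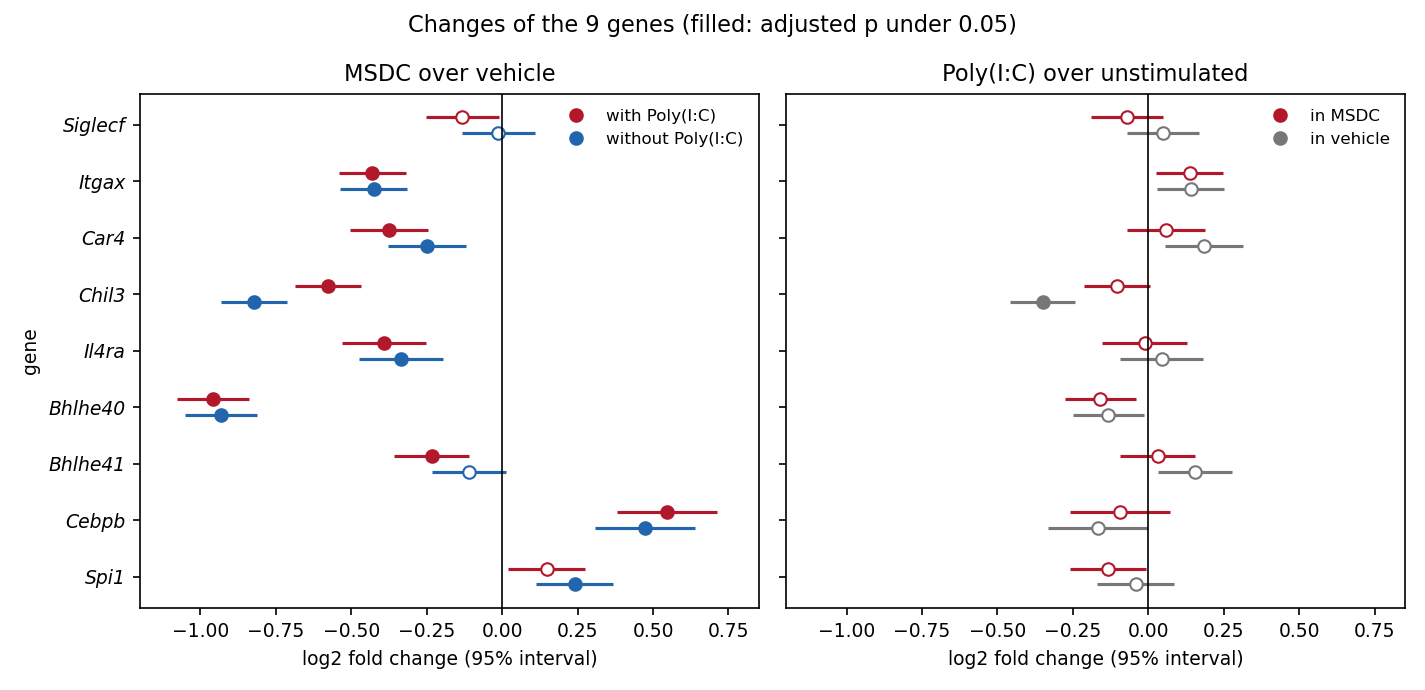
Log2 fold change of each of the 9 genes with its 95% interval from the edgeR fit, for MSDC over vehicle (left; red with Poly(I:C), blue without) and Poly(I:C) over unstimulated (right; red in MSDC-treated cells, grey in vehicle-treated cells); filled points have a Benjamini-Hochberg adjusted p under 0.05. Under MSDC, Bhlhe40 lay lowest, at -0.96 with Poly(I:C) and -0.93 without, and Cebpb highest, at 0.55 and 0.47; on the right, only Chil3 in vehicle-treated cells is filled.

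Among the surface molecules, Itgax, which encodes the CD11c chain that pairs with the β2 integrin chain, was lower with MSDC in both settings, Car4 likewise, and Siglecf in neither by the test. Itgax measured 1920.4 and 1916 CPM with MSDC and Poly(I:C), against 2608 and 2560.3 CPM with vehicle and Poly(I:C). Without stimulation it measured 1751 and 1738 CPM with MSDC, against 2418 and 2271 CPM with vehicle. Every MSDC library lay below every vehicle library, with no overlap. Itgax fell by 0.43 on the log2 scale with Poly(I:C) (SE 0.05; edgeR adjusted p = 1.02e-05) and by 0.43 without it (SE 0.05; edgeR adjusted p = 1.19e-05), losses of 25.8% and 25.6%. Of the 50-base windows of the Itgax transcript, 9.61% are shared with another gene, and its neighbour Itgad shares more of them than any other gene does. Itgad was at most 1.88 TPM in any library, against a median of 1014 TPM for Itgax. Itgb2, the β2 chain, averaged 2491 ± 55.2 CPM with MSDC and Poly(I:C), 2458 ± 26.6 CPM with vehicle and Poly(I:C), 2468 ± 29.5 CPM with MSDC alone and 2480 ± 59.9 CPM with vehicle alone (SD, n = 2 each), and did not pass the test for MSDC with Poly(I:C) (log2 fold change 0.02; edgeR adjusted p = 0.827) or without it (-0.01; edgeR adjusted p = 0.948).

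Car4 (chr11:84957754-84966054, plus strand, 8 exons) encodes carbonic anhydrase IV, an enzyme anchored to the cell surface that interconverts carbon dioxide and bicarbonate. It measured 538 and 540 CPM with MSDC and Poly(I:C), against 698 and 700.1 CPM with vehicle and Poly(I:C), and 526 and 508 CPM with MSDC alone, against 583 and 647 CPM with vehicle alone. The vehicle libraries were the higher in each pair of groups, with no overlap, and those without stimulation were the farthest apart. Car4 fell by 0.37 with Poly(I:C) (log2; SE 0.06; edgeR adjusted p = 0.000196) and by 0.25 without it (SE 0.06; edgeR adjusted p = 0.00629). The fall without Poly(I:C) no longer passed when the second MSDC library was left out (-0.24; edgeR adjusted p = 0.0680).

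Siglecf was the flattest of the 9 genes. It measured 300.3 and 309 CPM with MSDC and Poly(I:C), against 332 and 336 CPM with vehicle and Poly(I:C), and 324 and 317 CPM with MSDC alone, against 325 and 321 CPM with vehicle alone. The libraries of the 2 stimulated groups did not overlap, and those of the 2 unstimulated groups did. Neither difference passed the test: with Poly(I:C) the log2 fold change for MSDC was -0.13 (95% interval -0.25 to -0.01; edgeR adjusted p = 0.104), and without it -0.01 (interval -0.13 to 0.11; edgeR adjusted p = 0.913). The interval without Poly(I:C) holds no fall as large as that of Itgax.

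Siglecf and Itgax lie on the same strand of chromosome 7 (GRCm38.p6, chr7:43351341-43359475, 9 exons, and chr7:128129526-128150657, 30 exons, both on the plus strand), and their promoters, from 250 bases before to 50 bases after the start per RefSeq, are shown because these 2 markers define the cell in mouse lung and only Itgax passed the test for MSDC. The RefSeq promoter table matched 7 of the 9 genes; Bhlhe40 and Spi1 were not matched. The search on both strands used 4 short motifs: GAGGAA (PU.1), TTGCNNAA (C/EBP), CACGTG (the E-box class bound by Bhlhe40 and Bhlhe41) and TTCNNNNGAA (STAT6). Capitals mark the matches, which are a PU.1 match on the opposite strand at -65 in Siglecf (chr7:43351091-43351390, plus strand) and a STAT6 match at -127 in Itgax (chr7:128129300-128129599, plus strand), counted from the start that the promoter table uses, which for Itgax lies downstream of the gene start given above.
Siglecf promoter: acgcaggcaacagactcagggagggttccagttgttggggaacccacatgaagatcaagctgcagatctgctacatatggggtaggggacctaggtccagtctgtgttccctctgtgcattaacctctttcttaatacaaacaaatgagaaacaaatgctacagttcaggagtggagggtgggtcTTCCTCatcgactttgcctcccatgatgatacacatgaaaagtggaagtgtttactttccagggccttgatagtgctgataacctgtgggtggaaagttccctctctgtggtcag
Itgax promoter: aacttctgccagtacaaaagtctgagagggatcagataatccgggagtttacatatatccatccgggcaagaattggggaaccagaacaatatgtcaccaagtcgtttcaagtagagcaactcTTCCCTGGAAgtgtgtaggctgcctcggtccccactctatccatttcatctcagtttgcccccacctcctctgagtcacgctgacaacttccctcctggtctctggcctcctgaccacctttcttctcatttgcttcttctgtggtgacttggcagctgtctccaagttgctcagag
These were the only matches to the PU.1 and STAT6 motifs in the 7 promoters, where 28.3% and 6.95% of all 32851 promoters of the table hold one, and no match overlapped another. No C/EBP match was found in the 7, where 10.8% of all promoters hold one. Among the 11966 promoters of tested genes, 26.9% hold a PU.1 match, 5.47% a STAT6 match and 8.62% a C/EBP match.

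Chil3 (chr3:106147554-106167564, minus strand, 11 exons) encodes Ym1, a chitinase-like protein without chitinase activity that alternatively activated mouse macrophages secrete. MSDC lowered it in both settings. It measured 3308 and 3516 CPM with MSDC and Poly(I:C), against 5176 and 4996 CPM with vehicle and Poly(I:C). Without stimulation it measured 3688 and 3647 CPM with MSDC, against 6366 and 6601 CPM with vehicle. All 4 MSDC libraries were below all 4 vehicle libraries, and the vehicle libraries without Poly(I:C) stood highest. In these Chil3 alone took 0.651% and 0.678% of all counts, against 0.368% and 0.367% with MSDC alone. Chil3 fell by 0.58 on the log2 scale with Poly(I:C) (SE 0.05; edgeR adjusted p = 3.57e-07) and by 0.82 without it (SE 0.05; edgeR adjusted p = 6.79e-09), losses of 32.9% and 43.4%. Of the 50-base windows of the Chil3 transcript, 29.4% occur in another gene, and its near copy Chil4 (Ym2) shares more of them than any other gene does. The assignment of shared reads is not stated in the labels, and Chil4 was at most 0.71 TPM in any library, against at least 4260.3 TPM for Chil3.

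The promoter of Chil3 (GRCm38.p6, chromosome 3, minus strand, RefSeq) is shown as that of the most abundant of the 9 genes and the usual STAT6 target among them. It held no match to any of the 4 motifs, so no letters are in capitals, which says only that these letters are not in this window of chr3:106167515-106167814.
Chil3 promoter: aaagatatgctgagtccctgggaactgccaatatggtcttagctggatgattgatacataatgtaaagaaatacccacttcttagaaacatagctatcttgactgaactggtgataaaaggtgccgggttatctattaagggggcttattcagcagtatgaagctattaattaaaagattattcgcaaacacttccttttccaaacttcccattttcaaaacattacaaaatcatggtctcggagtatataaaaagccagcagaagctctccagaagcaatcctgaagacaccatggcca
Its GC content was 38.7%, against a mean of 53.8% (SD 11.3) over all promoters of the table, and it was the lowest of the 7, which reached 80.7% in Cebpb.

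Il4ra (chr7:125552271-125579474, plus strand, 11 exons) encodes the receptor chain shared by IL-4 and IL-13, and it was lower with MSDC in both settings. It measured 104 and 108 CPM with MSDC and Poly(I:C), against 140.5 and 137 CPM with vehicle and Poly(I:C), and 109.7 and 104 CPM with MSDC alone, against 130.4 and 139 CPM with vehicle alone. The 4 MSDC libraries lay within 104 to 110 CPM and the 4 vehicle libraries within 130.4 to 140.5 CPM. Il4ra fell by 0.39 with Poly(I:C) (log2; SE 0.07; edgeR adjusted p = 0.00026) and by 0.33 without it (SE 0.07; edgeR adjusted p = 0.00113).

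Other genes of IL-4 and IL-13 signalling fell as well. Of the 13 in the list beside Il4ra, 11 were tested, and 6 fell with Poly(I:C) (median log2 fold change of the 11, -0.33) and 6 without it (median -0.19), where 13.6% and 12.4% of all tested genes fell. Il13ra1, which pairs with Il4ra in the receptor that binds IL-13, averaged 58.7 ± 1.86 CPM with MSDC and Poly(I:C) and 114 ± 4.16 CPM with vehicle and Poly(I:C), and 49.1 ± 1.17 CPM with MSDC alone and 93.3 ± 8.31 CPM with vehicle alone (SD, n = 2 each). It fell by 0.96 with Poly(I:C) (log2; edgeR adjusted p = 7.79e-08) and by 0.93 without it (edgeR adjusted p = 1.54e-07), more than Il4ra itself. Il2rg, the common γ chain that pairs with Il4ra to bind IL-4, fell by 0.46 with Poly(I:C) (edgeR adjusted p = 0.000194) and had a log2 fold change of -0.08 without it (edgeR adjusted p = 0.545). The difference between these 2 values did not pass the test (-0.39; edgeR adjusted p = 0.317). Stat6, the transcription factor of the pathway, averaged 238 ± 11.9 CPM with MSDC and Poly(I:C) and 243 ± 1.28 CPM with vehicle and Poly(I:C), and did not pass in either setting (log2 fold change -0.03, edgeR adjusted p = 0.785, and 0.08, edgeR adjusted p = 0.459). The feedback inhibitor genes Cish and Socs1 fell by 0.94 and 0.99 with Poly(I:C) and by 0.97 and 1.39 without it (log2; edgeR adjusted p from 1.20e-07 to 3.38e-05).

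Bhlhe40 (chr6:108660629-108666925, plus strand) and Bhlhe41 (chr6:145858243-145865420, minus strand), each of 5 exons, encode related basic helix-loop-helix repressors that keep cell identity in mouse alveolar macrophages, with overlapping roles. MSDC lowered Bhlhe40 the most of the 9 genes and Bhlhe41 little. Bhlhe40 measured 360.4 and 363 CPM with MSDC and Poly(I:C), against 693 and 712 CPM with vehicle and Poly(I:C). Without stimulation it measured 406 and 401 CPM with MSDC, against 751 and 789 CPM with vehicle. All 4 MSDC libraries lay far below all 4 vehicle libraries, and none of the 4 groups overlapped another. Bhlhe40 fell by 0.96 on the log2 scale with Poly(I:C) (95% interval of the log2 fold change -1.08 to -0.84; edgeR adjusted p = 2.82e-09) and by 0.93 without it (-1.05 to -0.81; edgeR adjusted p = 4.42e-09), losses of 48.5% and 47.6%.

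Bhlhe41 measured 378 and 376 CPM with MSDC and Poly(I:C), against 436 and 452 CPM with vehicle and Poly(I:C), and 381 and 358 CPM with MSDC alone, against 395 and 402 CPM with vehicle alone. The MSDC libraries were lower in each pair, with no overlap, by a narrow gap without stimulation. Bhlhe41 fell by 0.23 with Poly(I:C) (log2; interval -0.36 to -0.11; edgeR adjusted p = 0.00646) and did not pass without it (-0.11; interval -0.23 to 0.01; edgeR adjusted p = 0.213). The fall with Poly(I:C) no longer passed when the second library of vehicle with Poly(I:C) was left out (-0.20; edgeR adjusted p = 0.0778). In neither setting did the interval of Bhlhe41 overlap that of Bhlhe40.

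Per gene length, Bhlhe40 exceeded Bhlhe41 in every library, by a ratio that MSDC narrowed. The ratio of their TPM was 1.86 and 1.88 with MSDC and Poly(I:C), against 3.11 and 3.07 with vehicle and Poly(I:C), and 2.09 and 2.19 with MSDC alone, against 3.72 and 3.84 with vehicle alone. Their summed level was 344 and 349 TPM with MSDC and Poly(I:C), against 557 and 578 TPM with vehicle and Poly(I:C), and 378 and 362 TPM with MSDC alone, against 616 and 623 TPM with vehicle alone. Both the ratio and the sum were thus lower in each MSDC library than in each vehicle library.

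**Figure D3:**
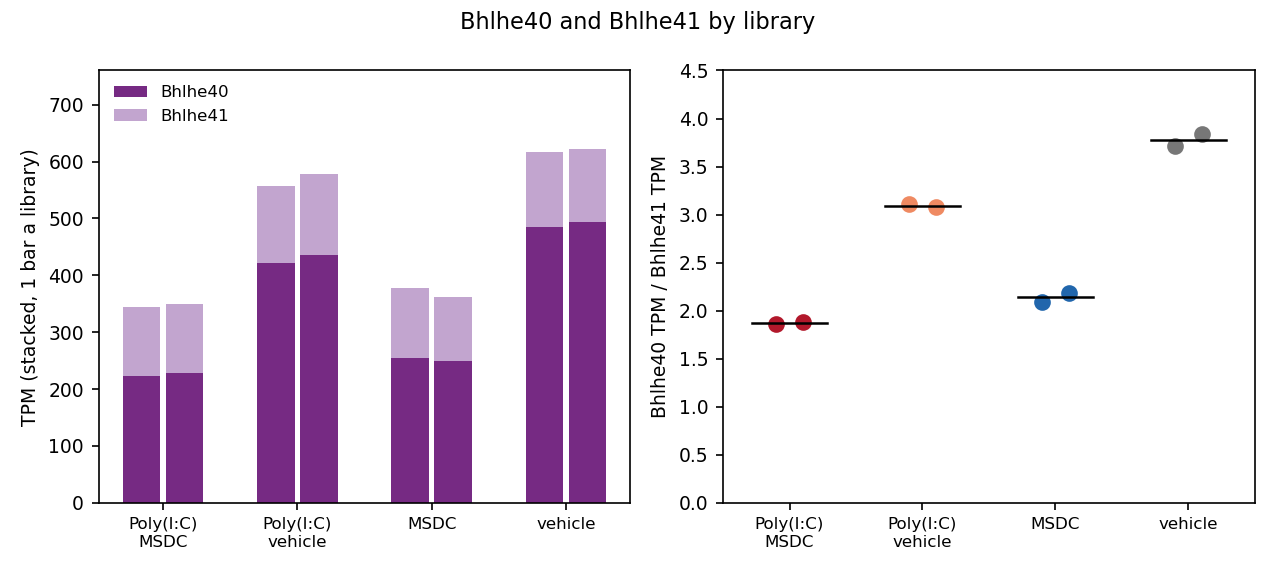
Left, Bhlhe40 and Bhlhe41 in TPM, stacked, 1 bar a library; right, the ratio of Bhlhe40 to Bhlhe41 TPM in each library (points) with the group mean (line). The ratio was 1.86 to 2.19 in the 4 MSDC libraries and 3.07 to 3.84 in the 4 vehicle libraries, and the dark segment of Bhlhe40 carries nearly all of the difference in height.

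The promoter of Bhlhe41 (GRCm38.p6, chromosome 6, minus strand, RefSeq) is shown because it held the only match, in capitals, to the E-box CACGTG among the 7 promoters, at -153 within chr6:145865371-145865670, where 7.15% of all promoters hold one. Among the 11966 promoters of tested genes, 10.1% hold one. The match is a description of the letters and does not say that the site is bound.
Bhlhe41 promoter: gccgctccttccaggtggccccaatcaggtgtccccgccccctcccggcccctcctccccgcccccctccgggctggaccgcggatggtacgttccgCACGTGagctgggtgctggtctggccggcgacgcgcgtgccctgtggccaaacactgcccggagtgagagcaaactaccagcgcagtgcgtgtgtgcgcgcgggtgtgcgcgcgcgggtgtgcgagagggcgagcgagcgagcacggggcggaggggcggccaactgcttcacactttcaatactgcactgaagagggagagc

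Of the 9 genes, only Bhlhe40 had a highest library at least 2-fold over its lowest, so the genes most like it were looked up over the 8 libraries by the root mean square difference of centred log2 CPM, among 9074 genes. The closest were Kazn (0.04 log2 units), Ptpn1 (0.05) and Cd200r4 (0.05). Ptpn1, which encodes a tyrosine phosphatase, averaged 292 ± 0.35 CPM with MSDC and Poly(I:C), 566 ± 1.11 CPM with vehicle and Poly(I:C), 317 ± 6.42 CPM with MSDC alone and 646 ± 13.3 CPM with vehicle alone (SD, n = 2 each). These genes were picked for their likeness, so their pattern is a description.

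Cebpb and Spi1 went the other way. Cebpb (chr2:167688915-167690432, plus strand, 1 exon) encodes C/EBPβ, which is needed for normal mouse alveolar macrophages and takes part in IL-4-driven gene expression in macrophages. It measured 1004 and 978 CPM with MSDC and Poly(I:C), against 662 and 694 CPM with vehicle and Poly(I:C), and 1036 and 1079 CPM with MSDC alone, against 682 and 841 CPM with vehicle alone. All 4 MSDC libraries were above all 4 vehicle libraries, and the 2 libraries of vehicle alone were the farthest apart of any group for any of the 9 genes (SD 14.8% of the mean). Cebpb rose by 0.55 with Poly(I:C) (log2; SE 0.08; edgeR adjusted p = 5.89e-05) and by 0.47 without it (SE 0.08; edgeR adjusted p = 0.00025), gains of 46.1% and 38.9%.

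Spi1 (chr2:91082374-91115759, plus strand, 5 exons) encodes PU.1, the factor that macrophage development requires. It measured 731 and 689 CPM with MSDC and Poly(I:C), against 659.8 and 623 CPM with vehicle and Poly(I:C), and 765 and 794 CPM with MSDC alone, against 641 and 679 CPM with vehicle alone. The MSDC libraries were the higher in each pair of groups, with no overlap. Spi1 rose by 0.24 without Poly(I:C) (log2; SE 0.06; edgeR adjusted p = 0.00726), and with Poly(I:C) the log2 fold change of 0.15 did not pass (SE 0.06; edgeR adjusted p = 0.0851). Without the second MSDC library the rise did not pass either (0.20; edgeR adjusted p = 0.131), while the value with Poly(I:C) passed in 5 of the 16 alternatives run. The ratio of Cebpb to Spi1 in TPM was 1.29 and 1.34 with MSDC and Poly(I:C), against 0.944 and 1.05 with vehicle and Poly(I:C), and 1.28 and 1.28 with MSDC alone, against 1.01 and 1.17 with vehicle alone.

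Among other macrophage transcription factors the calls for MSDC were all falls. Of 20 listed, 18 were tested. With Poly(I:C) 11 fell, where 13.6% of all tested genes fell, and without it 13 fell, where 12.4% did. The median log2 fold change was -0.38 in each setting. No gene passed as higher by edgeR, DESeq2 or limma; at an unadjusted p under 0.05 there were 0 higher with Poly(I:C) and 2 without it, Nr1h3 and Spic, named after their values were seen. With no expression filter, or without the second library of vehicle alone, 1 passed as higher without Poly(I:C), and without the second library of vehicle and Poly(I:C) 1 did so with it. Irf4, which alternative activation requires in mice, fell by 2.85 in each setting, to 4.76 ± 0.629 CPM with MSDC and Poly(I:C), against 34.3 ± 1.04 CPM with vehicle and Poly(I:C) (log2; SD, n = 2 each; edgeR adjusted p = 2.73e-10). Egr2 fell by 0.98 with Poly(I:C) and by 0.70 without it, and Irf8 by 0.92 and 0.76 (log2; edgeR adjusted p from 1.01e-08 to 5.57e-07). Pparg, the receptor through which GM-CSF sets alveolar macrophage identity, fell by 0.62 and 0.65 (edgeR adjusted p = 2.05e-06 and 1.39e-06). Cebpa, the relative of Cebpb, fell by 0.42 and 0.36 (edgeR adjusted p = 0.000176 and 0.000743) where Cebpb rose.

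Set against the other listed genes of alveolar macrophage identity, the falls of Itgax and Car4 were the less common direction. This list, like the others, was chosen with earlier results of these data known, so its counts are a description. Of 24 other identity genes, all tested, 14 rose and 4 fell with MSDC and Poly(I:C). Over all tested genes 12.5% rose and 13.6% fell there. Likewise 14 rose and 4 fell without Poly(I:C), where 11.1% and 12.4% of all tested genes did. The medians were 0.52 and 0.48 (log2), and Pparg was among the falls in both settings. Ear1, a ribonuclease gene of the eosinophil-associated family, averaged 711 ± 10.7 CPM with MSDC and Poly(I:C) and 54.9 ± 3.73 CPM with vehicle and Poly(I:C), a rise of 3.70 (log2; SD, n = 2 each; edgeR adjusted p = 1.22e-14). The keratin genes Krt79 and Krt19 rose by 3.71 and 3.12, and Cidec, which encodes a lipid droplet protein, by 3.27, in the same comparison (log2; edgeR adjusted p from 2.76e-13 to 3.81e-12). Without Poly(I:C) the rises of Ear1, Krt79, Krt19 and Cidec were 3.78, 3.85, 2.69 and 3.49.

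Among other genes of alternative activation more fell than rose with MSDC. Of 22 listed, 19 were tested. With Poly(I:C) 7 fell and 2 rose, where 13.6% of all tested genes fell and 12.5% rose. Without it 11 fell and 2 rose, where 12.4% fell and 11.1% rose. The medians were -0.43 and -0.59 (log2). Ccl17, a chemokine that attracts T helper cells, averaged 91.8 ± 10.3 CPM with MSDC and Poly(I:C) and 427 ± 34.9 CPM with vehicle and Poly(I:C), a change of -2.22, and 68.6 ± 6.49 CPM with MSDC alone and 476 ± 40.6 CPM with vehicle alone, a change of -2.79 (log2; SD, n = 2 each; edgeR adjusted p = 8.93e-11 and 1.02e-11). Clec7a, which encodes the β-glucan receptor dectin-1, fell by 1.12 with Poly(I:C) and by 0.73 without it (edgeR adjusted p = 2.92e-10 and 3.40e-08). Tgm2, which encodes transglutaminase 2, went the other way, with rises of 1.54 and 1.61 (edgeR adjusted p = 5.31e-11 and 3.42e-11), and Mrc1, the mannose receptor gene, which both lists hold, was the other to rise, by 0.38 and 0.32 (edgeR adjusted p = 0.00118 and 0.00467). The classical markers Arg1 and Retnla were at most 0.62 and 0.13 TPM in any library.

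**Figure D4:**
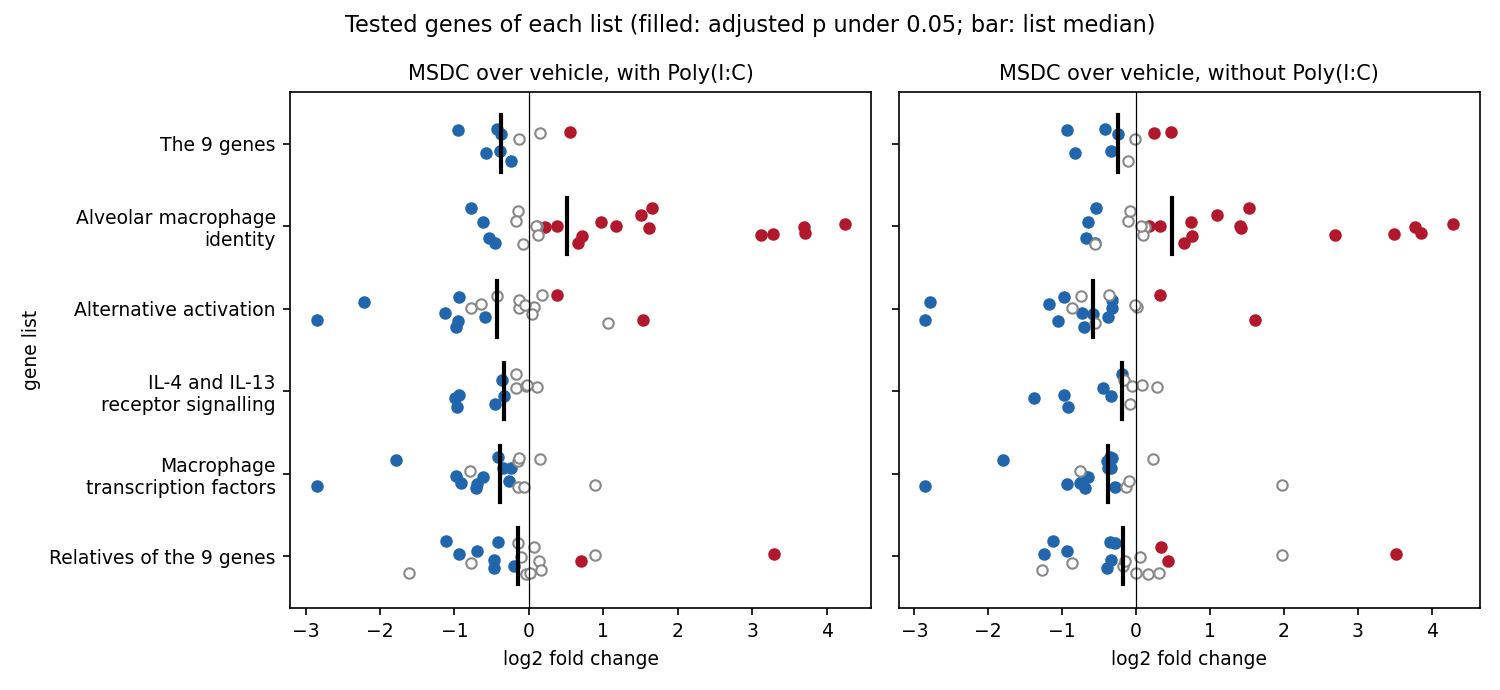
Log2 fold change for MSDC over vehicle of every tested gene of the 9 and of 5 gene lists, with Poly(I:C) (left) and without (right); filled points have a Benjamini-Hochberg adjusted p under 0.05 in edgeR (red higher, blue lower), and black bars are list medians. The identity list has its median at 0.52 and 0.48 and reaches beyond 4, while the medians of the 9 genes, at -0.37 and -0.25, and of the other 4 lists lie below 0.

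Relatives of the 9 genes in their own families were mixed. Of 30 listed, 19 were tested. With Poly(I:C) 2 rose and 7 fell, where 12.5% of all tested genes rose and 13.6% fell. Without it 3 rose and 7 fell, where 11.1% rose and 12.4% fell. The medians were -0.14 and -0.18 (log2). Cebpa, Cebpd and Cebpg are also held by the list of transcription factors. The count of 3 rises became 1 when the second library of vehicle alone or the first of MSDC alone was left out. Cd33, which like Siglecf encodes a sialic acid-binding lectin, fell by 1.11 and 1.13 (edgeR adjusted p = 2.89e-08 and 2.58e-08). Itgad, the integrin gene nearest to Itgax in sequence, rose by 3.29 and 3.51 from a low level (edgeR adjusted p = 4.53e-06 and 2.94e-06), and measured 1.60 and 1.67 TPM with MSDC and Poly(I:C), against 0.12 and 0.21 TPM with vehicle and Poly(I:C). Itgal, which encodes the CD11a chain, fell by 0.47 with Poly(I:C) (edgeR adjusted p = 2.50e-05).

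Markers of other cells moved in part with MSDC. The summed level of 8 markers of monocytes and monocyte-derived macrophages was 19.5 to 19.6 TPM with MSDC and Poly(I:C), against 39.7 to 39.8 TPM with vehicle and Poly(I:C), and 19.4 to 22.04 TPM with MSDC alone, against 38.8 to 39.4 TPM with vehicle alone. Of these 8, 6 were tested and 3 fell in each setting. The 6 dendritic cell markers summed to 3.98 to 4.67 TPM with MSDC and Poly(I:C), against 6.84 to 8.47 TPM with vehicle and Poly(I:C), and to 2.79 to 3.10 TPM with MSDC alone, against 4.75 to 5.66 TPM with vehicle alone, and 2 of the 3 tested fell in each setting. The 4 endothelial markers found summed to 0.46 to 0.58 TPM with MSDC and Poly(I:C), against 1.49 to 1.69 TPM with vehicle and Poly(I:C), and to 0.37 to 0.49 TPM with MSDC alone, against 1.01 to 1.44 TPM with vehicle alone. Only 1 of them, Cdh5, was tested, and it fell in both settings. The 5 neutrophil markers found summed to 38.5 to 55.5 TPM with MSDC and Poly(I:C), against 58.3 to 59.7 TPM with vehicle and Poly(I:C), and to 42.9 to 53.2 TPM with MSDC alone, against 54.9 to 56.9 TPM with vehicle alone. Of the 3 tested, 1 fell in each setting, Mmp8, and 1 rose without Poly(I:C), S100a8. Mmp8 measured 14.6 and 6.64 CPM with MSDC and Poly(I:C), against 38.5 and 36.7 CPM with vehicle and Poly(I:C), and 4.10 and 6.22 CPM with MSDC alone, against 33.6 and 29.2 CPM with vehicle alone. The part of these cells in the falls of Itgax, Car4, Chil3, Il4ra and Bhlhe40 was not tested.

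The log2 fold changes of the 9 genes spanned a narrower range with Poly(I:C), -0.35 to 0.19 in vehicle-treated cells, than with MSDC. For MSDC they ran from -0.96 to 0.55 with Poly(I:C). In vehicle-treated cells 1 of the 9 passed, Chil3, a share close to the 11.6% of all tested genes that passed. At an unadjusted edgeR p under 0.05 there were 6 of the 9, 3 of them higher. The weakest of the 6, Cebpb, ranked 2789 by p, so at least 2789 of the 11621 tested genes had such a p in these cells. Chil3 fell by 0.35 on the log2 scale there (SE 0.05; edgeR adjusted p = 0.000176), a loss of 21.6%, to 5176 and 4996 CPM with vehicle and Poly(I:C), against 6366 and 6601 CPM with vehicle alone. The next nearest to the threshold were Car4, with a log2 fold change of 0.19 (edgeR adjusted p = 0.0614), and Itgax, with 0.14 (edgeR adjusted p = 0.0992). The other 6 lay between -0.17 for Cebpb and 0.16 for Bhlhe41. Without the first library of vehicle alone, Cebpb passed as a fall (-0.31; edgeR adjusted p = 0.000684) and Itgax as a rise (0.19; edgeR adjusted p = 0.0255), and without the second Car4 passed as a rise (0.26; edgeR adjusted p = 0.00401). Bhlhe40 passed as a fall when only library totals were used for scaling (-0.19; edgeR adjusted p = 0.0328). It also did so in both limma fits (-0.19 in each; limma adjusted p = 0.0358 and 0.0336). With no expression filter, Car4 passed as a rise (0.18; edgeR adjusted p = 0.0461) and Cebpb as a fall (-0.17; edgeR adjusted p = 0.0453). The libraries did not overlap for 6 of the 9 genes, where 49.7% of all tested genes did not overlap.

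In MSDC-treated cells none of the 9 genes passed for Poly(I:C) by edgeR, where 6.32% of all tested genes passed. At an unadjusted p under 0.05 there were 3, Bhlhe40 (log2 fold change -0.16), Itgax (0.14) and Spi1 (-0.13), and DESeq2 and limma called 0. The weakest of the 3, Spi1, ranked 1727 by p, so at least 1727 of the 11621 tested genes had such a p. Bhlhe40 passed when only these 2 groups were fitted (-0.16; edgeR adjusted p = 0.0405) and when either library of vehicle alone was left out (edgeR adjusted p = 0.0435 and 0.0439). Chil3 measured 3308 and 3516 CPM with MSDC and Poly(I:C), against 3688 and 3647 CPM with MSDC alone, a log2 fold change of -0.10 (95% interval -0.21 to 0.0047; edgeR adjusted p = 0.326). The groups did not overlap for Chil3, and for 7 of the 9 genes in all, where 49.7% of all tested genes did not overlap.

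Beside the 9 genes, Poly(I:C) raised 6 of the 11 tested genes of IL-4 and IL-13 signalling and lowered 1 in vehicle-treated cells. The median log2 fold change of the 11 was 0.28 there, against 0 over all tested genes. Of all 11621 tested genes, 874 rose and 477 fell in vehicle-treated cells, and 560 rose and 174 fell in MSDC-treated cells. Among the 6 rises in vehicle-treated cells were Socs1 by 1.28, Il2rg by 0.45 and Il13ra1 by 0.29 (edgeR adjusted p = 5.69e-06, 0.000659 and 0.0149). The count of 6 rises was 3 with limma, with only these 2 groups fitted, or without the second library of vehicle and Poly(I:C). In MSDC-treated cells 2 of the 11 rose, Socs1 by 1.68 and Jak2 by 0.29 (edgeR adjusted p = 2.36e-06 and 0.0358), a count of 1 without any 1 of the 4 libraries of these groups, or with limma or DESeq2, and of 4 with only these 2 groups fitted or without either library of vehicle alone. Siglec1, a lectin relative of Siglecf induced by interferon, rose by 1.73 in vehicle-treated cells and by 1.58 in MSDC-treated cells (edgeR adjusted p = 4.64e-09 and 1.57e-08), while Siglecf had log2 fold changes of 0.05 and -0.07 (edgeR adjusted p = 0.659 and 0.616). The 4 comparisons share groups of libraries with each other, so their values stand side by side and were not correlated.

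Whether the response to Poly(I:C) differed between MSDC-treated and vehicle-treated cells was tested as an interaction, which none of the 9 genes passed by edgeR, where 0.224% of all tested genes passed. Chil3 alone had an unadjusted edgeR p under 0.05 (0.00389, rank 118 of the 11621 tested genes), with an interaction of 0.25 (log2; SE 0.07; edgeR adjusted p = 0.383), and DESeq2 and limma called 0 of the 9. For the other 8 the interaction lay between -0.13 for Car4 and 0.07 for Cebpb. The interval for Bhlhe40 was -0.19 to 0.14 around -0.03, and that for Itgax -0.16 to 0.15 around -0.0034, so that differences of response of up to those bounds could not be told from none at this spread. By group mean, Bhlhe40 was highest with vehicle alone, then with vehicle and Poly(I:C), MSDC alone, and MSDC with Poly(I:C), with no neighbours overlapping. Chil3 had the same order, also with no overlap.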

How the data were processed

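Bulk RNA-seq measured RNA in 8 libraries from alveolar macrophages of mice kept in culture, with 4 groups of 2. The table deposited by the authors gives an expected count, a TPM and an FPKM for each gene and library. The deposited expected counts carry the name read counts, are not whole in 5.95 to 7.19% of values, and were rounded. Per the file headers the other columns are TPM and FPKM, which correct for the length of a gene and for depth; FPKM entered no result. Per the submitters' processing notes, the build was GRCm38 (mm10) and the tools included Bowtie2 2.3.4, TopHat2 2.1.1 and Cuffdiff, with no role given for each.

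Symbols turned into dates (23) were repaired from gene identifiers, of which 15419 were found in RefSeq GRCm38.p6. Genes were filtered with filterByExpr (11621 kept), scaled by TMM (factors 0.985 to 1.027), and fitted in 1 quasi-likelihood model of the 4 groups over all 8 libraries (R 4.3.3, edgeR 4.0.16; degrees of freedom 4 residual and 10.8 prior). In each of 5 comparisons the call was a two-sided p, adjusted by Benjamini-Hochberg over all tested genes, under 0.05. Intervals are 95%. A count of 3 corresponds to 0.0991 to 0.106 CPM, a floor for counting error only.

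The 9 genes, the gene lists and the markers were chosen with earlier results of these data known. Several genes are shared between lists, so the same change can be counted in each. The transcription factor list shares Cebpa, Cebpd and Cebpg with the relatives, Irf4, Egr2 and Klf4 with alternative activation, and Pparg with identity. Alternative activation shares Cish with IL-4 and IL-13 signalling. The text names the 9 genes, Il2rg, Il13ra1, Stat6, Pparg, Cebpa, Itgb2 and Chil4, up to 4 genes of each list with the smallest p in the comparison described, and the 3 genes most like a member. Mrc1, Arg1, Retnla, Nr1h3, Spic, Cdh5, Mmp8, S100a8, Ear2, Plet1 and Cd68 were named after their values were seen. The alternatives were RLE factors, library totals, DESeq2 1.42.0, limma 3.58.1 on log2(TPM + 0.1) and log2(TPM + 1), no filter, the replicate block, only the 2 groups compared, and leaving out each library. The labels do not say whether replicate numbers pair libraries. Replicate differences over the tested genes correlated at -0.026 to 0.051 between groups, which cannot exclude a pairing.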

Additional observations from a re-analysis of the deposited data

Results flagged for a closer look

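For 1 gene of the lists, the effect of MSDC differed with stimulation by a test of the difference itself. Clec7a, which encodes the β-glucan receptor dectin-1, had an interaction of -0.39 (log2; SE 0.07; edgeR adjusted p = 0.0434), its rise with Poly(I:C) being 0.28 in MSDC-treated cells and 0.67 in vehicle-treated cells. Its level was 1623 and 1661 TPM with MSDC and Poly(I:C), 3543 and 3444 TPM with vehicle and Poly(I:C), 1348 and 1369 TPM with MSDC alone, and 2400.3 and 2196 TPM with vehicle alone. The interaction kept its sign in all 15 alternatives, and in 10 of them it no longer passed the threshold, with values from -0.40 to -0.33, among them library totals alone (-0.36; adjusted p = 0.0794), the replicate block (-0.39; adjusted p = 0.0771) and both limma fits. Of the 9 genes, none met a rule for this section, and with 2 libraries a group no library could be tested as standing apart.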

How the results depend on the processing

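Of the 15 values called among the 9 genes, 12 kept their direction and their call in every alternative; Car4 and Spi1 for MSDC without Poly(I:C) and Bhlhe41 for MSDC with Poly(I:C) each lost it without 1 library, as given above. The count of the 9 genes called for MSDC was 7 in each setting under the replicate block, as in the fit without it, and the block also left the Poly(I:C) counts at 1 in vehicle-treated and 0 in MSDC-treated cells. The count for Poly(I:C) in vehicle-treated cells, 1, became 2 with library totals alone and with either limma fit and 3 with no filter, and ranged from 1 to 3 with a library left out. The count in MSDC-treated cells, 0, became 1 with only the 2 groups fitted and ranged from 0 to 1 with a library left out. The cause was not tested. Over all tested genes, the 26 interaction calls became 48 with DESeq2, 5 with limma on log2(TPM + 0.1), 116 with no filter and 5 to 92 with a library left out; the 734 calls for Poly(I:C) in MSDC-treated cells became 1184 with only the 2 groups fitted and as few as 423 with a library left out; and the 1351 in vehicle-treated cells fell to 848 without the first library of vehicle and Poly(I:C). Of the 10 list counts of each comparison, 5 moved by over 1.5 times in some alternative for Poly(I:C) in vehicle-treated cells, 9 in MSDC-treated cells, 3 for MSDC without Poly(I:C) and 1 with it. Leaving out 1 library leaves a group with 1, assumed to vary like the others.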
